A study of Mus musculus with 8 samples.

Results

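The Pax, Six-family and Eya factors that specify skeletal muscle were followed here as 9 genes, Pax3, Pax7, Six2, Six4, Six5, Eya1, Eya2, Eya3 and Eya4, of the 24980 gene symbols in a table of RNA-seq counts. The genes were listed by name and family, with earlier results of these data known, and all 9 of 9 passed the filter on low counts that left 17582 genes for testing. The table holds 8 libraries of mouse skeletal myogenic cells, 2 in each of 4 groups. TF libraries came from freshly isolated progenitors of teratomas, which are tumors of mixed tissues that mouse embryonic stem cells (in the study's main experiments E14 cells carrying EGFP) had formed in the irradiated, cardiotoxin-injured tibialis anterior muscle of NSG-mdx4Cv mice. Such mice lack adaptive immunity and dystrophin, E14 is a single line, and the progenitors were sorted as EGFP+ cells without CD31 and CD45 that carried alpha7-integrin and VCAM-1. TE libraries came from these progenitors at passage 8, grown on gelatin in an expansion medium. SF and SE libraries came from freshly isolated and passage 8 endogenous satellite cells of adult muscle, whose donor strain, sex and age are not given in the sources used here. A difference between teratoma and satellite origin cannot be told apart from one of cell line, host mouse or donor. The samples were described as biological replicates. The comparisons asked which of the 9 genes differed between fresh and expanded cells of the same origin, and which differed between teratoma and satellite origin at the same stage.

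Pax3 and Pax7 are paired-domain transcription factors that mark the muscle lineage, Pax3 chiefly in the embryo, where it drives the migration of limb muscle precursors, and Pax7 chiefly in satellite cells, which need it to persist. Six-family proteins are homeodomain factors that bind the MEF3 site of muscle genes, and Eya proteins are phosphatases that do not bind DNA themselves and act as their coactivators. In the embryo these families lie upstream of Myf5, Myod1 and Myog, the basic helix-loop-helix factors that commit cells to muscle and make them differentiate.

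Pax3 and Pax7 are close paralogs, so a stretch of both genes is shown first to let a reader judge how well short reads can tell them apart. The stretches are 120 bases of exon 2, which encodes part of the paired domain, from the minus strand of GRCm38 with the exons of GENCODE M21. The Pax3 stretch lies at chr1:78195367-78195486 and the Pax7 stretch at chr4:139830254-139830373, and the capitals mark the 17 bases that differ.
Pax3: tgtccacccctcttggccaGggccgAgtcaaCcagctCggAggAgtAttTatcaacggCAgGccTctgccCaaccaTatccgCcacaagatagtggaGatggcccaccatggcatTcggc
Pax7: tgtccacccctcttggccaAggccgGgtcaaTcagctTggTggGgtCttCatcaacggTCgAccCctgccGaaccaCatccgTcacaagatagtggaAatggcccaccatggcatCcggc
The stretches were 85.8% identical, and the longest run of identical bases was 19. Over all annotated transcripts, Pax3 and Pax7 shared 0 words of 31 bases. Of the words of 31 bases of a gene, the share also found in any other gene was 0 for Pax7, Six5 and Eya2 and at most 1.78% (Six2) among the rest, so few reads of the 9 genes could be assigned to another gene.

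The 9 genes lie at separate loci. Pax3 spans chr1:78101267-78197134 on the minus strand, with 8 exons in its longest transcript, and Pax7 spans chr4:139737062-139833528 on the minus strand, with 9 exons. Six2 (chr17:85684277-85688274, minus strand) and Six5 (chr7:19094594-19098549, plus strand) are short genes with 2 and 3 exons, and Six4 lies at chr12:73099609-73113456 on the minus strand. The Eya genes are long, with Eya1 at chr1:14168954-14310235 (minus), Eya2 at chr2:165595032-165771727 (plus), Eya3 at chr4:132638987-132724765 (plus) and Eya4 at chr10:23102963-23350786 (minus).

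A library held between 11930961 (TF replicate 1) and 21146632 (SE replicate 1) estimated counts, of which the ribosomal precursor Rn45s took between 7.99% and 21.3%. Levels are given as normalized counts, the count of a gene after scaling every library to the same TMM effective size of 16355820, and values of groups are the mean ± SD of n = 2 libraries. A count of 3 corresponded to between 2.31 and 4.13 normalized counts, which covers counting error only. Differences are log2 fold changes with their standard error (SE) from edgeR's quasi-likelihood test in a single fit of the 4 groups, with p-values adjusted over all 17582 genes by the Benjamini-Hochberg method, and a gene was called at an adjusted p below 0.05 where the higher level also exceeded the lower by more than 25%. The 5 comparisons share libraries and are therefore not independent of each other. The replicates of a group differed by more than sampling noise, with a chi-square per degree of freedom from 12.1 in TE to 93.0 in SE, and on simulated counts for TE against SE the test recovered 10.4% of the genes changed 2-fold, 59.7% of those changed 4-fold and 81.8% of those changed 8-fold, and 10.6% of its 113 calls were false. In that simulation 67, 67 and 66 of 17582 genes were changed at these folds, none with a low mean count, and all others were equal between groups. The data gave 1268 calls for TE against SE, so these shares need not hold for the data. Where a library was left out, its group kept a single library, whose spread was assumed to be that of the other groups.

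In the teratoma-derived cells 7 of the 9 genes passed the test between fresh and expanded cells, with Six4, Eya3 and Eya4 higher and Pax7, Six2, Six5 and Eya1 lower in TE. In the satellite cells 6 of 9 passed, with Six4, Eya2, Eya3 and Eya4 higher and Pax7 and Eya1 lower in SE. The share of all tested genes called was 26.1% for TE against TF (9.86% higher, 16.2% lower) and 40.7% for SE against SF (20.9% higher, 19.8% lower). The calls higher in SE made up 51.4% of those for SE against SF, and 40.8% by DESeq2. In the teratoma-derived cells Six4, Six5 and Eya3 lost their calls without TF replicate 2, and also without TE replicate 1. Without TE replicate 1 Six2 lost its call too, and Pax3, with 0 counts in the TE library that was left, gained one. The median log2 fold change of the 9 genes was -1.49 in TE against TF and 0.75 in SE against SF, and that of all tested genes was -0.18 and -0.23. Scaling by median-ratio size factors shifted the median of all genes by -0.19 in SE against SF, -0.16 in TF against SF and 0.14 in the difference of the expansion effects, and left the direction of every called member as it was. For 5 genes, Pax7, Six4, Eya1, Eya3 and Eya4, the 4 fresh libraries did not overlap with the 4 expanded libraries, and for Pax3 and Six2 the 4 satellite libraries did not overlap with the 4 teratoma libraries. Of all tested genes, 33.2% had no overlap between fresh and expanded libraries and 7.34% none between satellite and teratoma libraries.

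**Figure D1:**
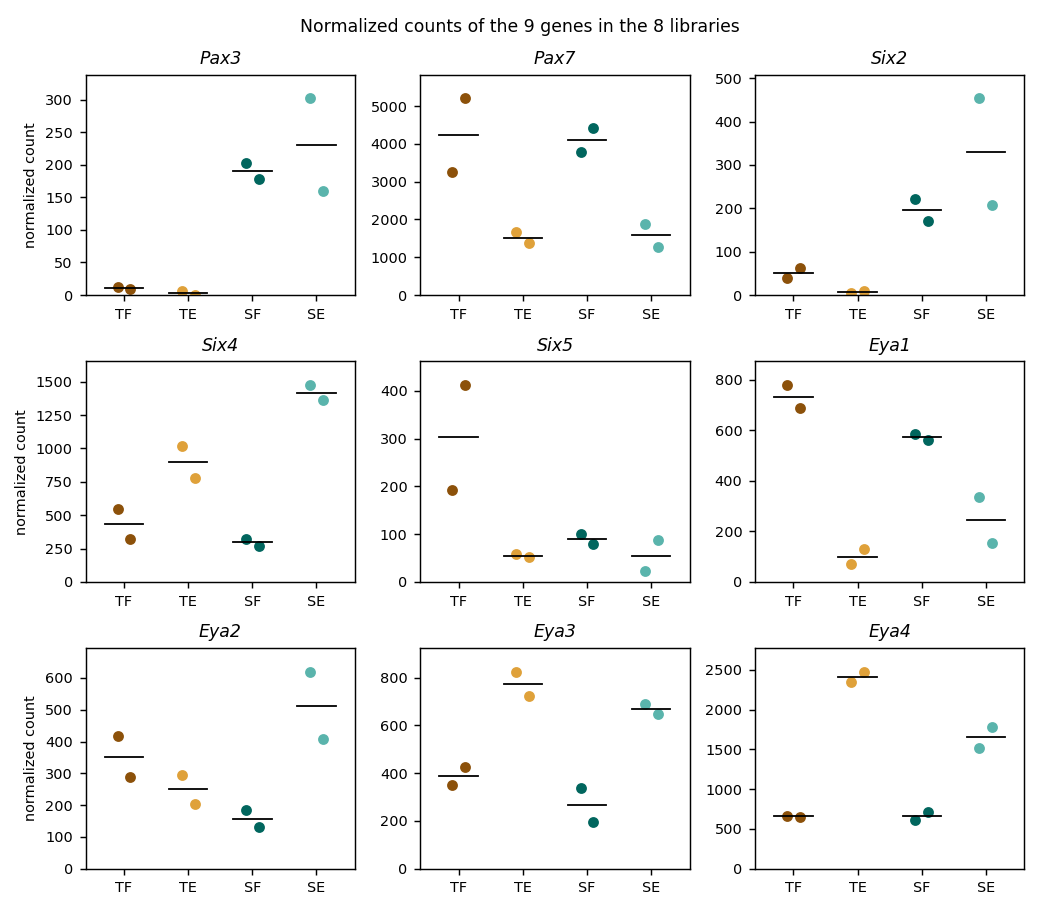
Normalized counts of the 9 genes (y axis, linear, from 0, with a separate scale for each gene) in the TF, TE, SF and SE groups (x axis). Each point is a library and each bar the mean of n = 2. Pax7 and Eya1 are higher in all 4 fresh libraries, Six4, Eya3 and Eya4 in all 4 expanded libraries, and Pax3 and Six2 in all 4 satellite libraries.

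Pax7 was the most abundant of the 9 genes in both fresh groups. Its level was 3249 and 5211 normalized counts in TF, 1656 and 1367 in TE, 3775 and 4422 in SF, and 1879 and 1279 in SE. Both fresh groups were therefore high and both expanded groups low, with no overlap between them. Pax7 was 2.80-fold lower in TE than in TF (log2 fold change -1.49 ± 0.27, edgeR adjusted p = 0.00361) and 2.59-fold lower in SE than in SF (-1.38 ± 0.27, adjusted p = 0.00325). Both calls held in every alternative. The effect of expansion did not differ between the origins within the spread (difference -0.11, 95% interval -0.96 to 0.74, adjusted p = 0.929). Between origins Pax7 differed by 0.05 in fresh cells (interval -0.56 to 0.65, adjusted p = 0.926) and by -0.06 in expanded cells (interval -0.67 to 0.54, adjusted p = 0.981). The sign of the fresh value turned with median-ratio size factors (-0.11) and that of the difference of the effects did too (0.0242), but a 2-fold difference in either direction lay outside both intervals.

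Pax3 separated the cells by origin. It had 12.4 and 9.13 normalized counts in TF, 6.60 and 0 in TE, 203 and 178 in SF, and 302 and 159 in SE. Pax3 was 4.13 ± 0.95 log2 units lower in TF than in SF by edgeR (log2 fold change -4.13, adjusted p = 0.0124), and it was also lower in TE than in SE (-6.06 ± 1.05, adjusted p = 0.00814). The second value rests on estimated counts of 8.03 and 0 in the TE libraries, so its size is poorly known, although the direction and the call of both comparisons held in every alternative. The change with expansion was not resolved in either origin, at -1.66 ± 1.03 in teratoma-derived cells (adjusted p = 0.260) and 0.27 ± 0.79 in satellite cells (adjusted p = 0.798), and the difference of these changes was -1.93 ± 1.30 (adjusted p = 0.373). Without TE replicate 1, which leaves only the library with 0 counts, the teratoma change was -6.39 (adjusted p = 0.0192) and the difference of the changes was -6.68 (adjusted p = 0.0368).

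Per kilobase of the longest transcript, Pax7 exceeded Pax3 in every library. The ratio of Pax7 to Pax3 was 173 and 377 in TF, 166 in TE replicate 1, 12.3 and 16.4 in SF, and 4.10 and 5.31 in SE. In TE replicate 2 no ratio could be formed because Pax3 had 0 counts. Pax3 thus made up 0.419% ± 0.219 of the summed Pax3 and Pax7 level per kilobase in TF, 6.65% ± 1.26 in SF and 17.7% ± 2.65 in SE. The share was highest in SE, where Pax7 was low and Pax3 was not.

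Six2, best known for keeping kidney progenitors undifferentiated, followed origin as Pax3 did. Its level was 39.9 and 62.6 normalized counts in TF, 4.95 and 10.2 in TE, 222 and 172 in SF, and 454 and 208 in SE. All 4 satellite libraries were above all 4 teratoma libraries. Six2 was lower in TE than in SE (log2 fold change -5.43 ± 0.67, edgeR adjusted p = 0.00154) in every alternative, on estimated counts of 6 and 12 in the TE libraries. It was lower also in TF than in SF (-1.94 ± 0.56, adjusted p = 0.0331), a call that was lost without TF replicate 1 (adjusted p = 0.140), TF replicate 2 (0.0581) or SF replicate 1 (0.107).

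Six2 was also a gene on which expansion acted differently in the 2 origins. It fell in teratoma-derived cells (-2.74 ± 0.63, edgeR adjusted p = 0.0106), which without TE replicate 1 no longer passed (adjusted p = 0.0748). In satellite cells its change was 0.75 ± 0.53 (adjusted p = 0.276), with SE replicate 2 within the range of the fresh libraries and SE replicate 1 above it. The difference of these changes was -3.49 ± 0.82 (adjusted p = 0.0210), and the call was lost without TE replicate 1 (adjusted p = 0.0736) or SE replicate 1 (0.0842). Of all tested genes, 14.3% were called for such a difference (4.7% with the greater log2 change in teratoma-derived cells, 9.62% with the lesser, as for Six2), and 2 of the 9 genes were. The share of the former among all such calls was 32.8%, and 43.9% by DESeq2.

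Six4, which acts with other Six-family factors on muscle promoters, rose with expansion in both origins. It had 549 and 322 normalized counts in TF, 1020 and 777 in TE, 322 and 269 in SF, and 1476 and 1363 in SE. Each expanded library exceeded each fresh library. The rise was 4.81-fold in satellite cells (log2 fold change 2.26 ± 0.29, edgeR adjusted p = 0.000259) and 2.06-fold in teratoma-derived cells (1.04 ± 0.28, adjusted p = 0.0221). The satellite call held in every alternative, and the teratoma call was lost without TF replicate 2 (adjusted p = 0.144) or TE replicate 1 (0.143). The difference between the rises was -1.22 ± 0.40 and missed the threshold (adjusted p = 0.0696), passing it without TF replicate 2 (adjusted p = 0.0298). Between origins Six4 differed by 0.56 ± 0.28 in fresh cells (adjusted p = 0.182) and by -0.66 ± 0.28 in expanded cells (adjusted p = 0.217).

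Six5, a Six-family gene next to the Dmpk locus of myotonic dystrophy, was low in most libraries and uneven between replicates. It had 193 and 412 normalized counts in TF, 57.7 and 52.6 in TE, 101 and 80.4 in SF, and 22.4 and 87.9 in SE. TF stood above the other groups, which overlapped in part. The fall in teratoma-derived cells (log2 fold change -2.45 ± 0.70, edgeR adjusted p = 0.0279) was lost without TF replicate 2 (adjusted p = 0.196), TE replicate 1 (0.102) or TE replicate 2 (0.119). The change in satellite cells was -0.72 ± 0.67 (adjusted p = 0.406). In fresh cells Six5 was 1.74 ± 0.68 higher in TF than in SF without passing (adjusted p = 0.0931), and without SE replicate 1 or SE replicate 2 it passed (adjusted p = 0.0280 and 0.0342). In expanded cells the value was 0.00742 ± 0.672 (interval -1.50 to 1.51), and it turned to -0.0115 with median-ratio size factors.

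**Figure D2:**
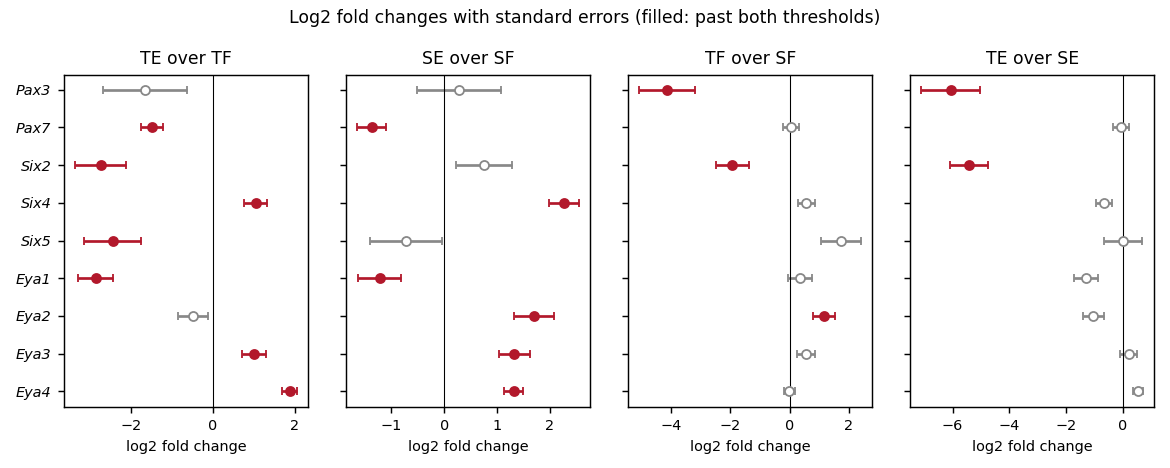
Log2 fold changes (x axis) of the 9 genes for TE over TF, SE over SF, TF over SF and TE over SE. Points are edgeR estimates and lines their standard errors, with filled points for called genes. Eya4 is called in both comparisons of expanded with fresh cells, and Pax3 and Six2 in both comparisons of teratoma with satellite cells.

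Eya4 rose and Eya1 fell with expansion in both origins. Eya4 is a coactivator known for its part in hearing and heart muscle, and had 664 and 654 normalized counts in TF, 2349 and 2475 in TE, 619 and 710 in SF, and 1524 and 1780 in SE. The replicates of each group lay close together and the expanded libraries were all above the fresh. Eya4 rose 3.66-fold in teratoma-derived cells (log2 fold change 1.87 ± 0.19, edgeR adjusted p = 9.64e-05) and 2.49-fold in satellite cells (1.31 ± 0.18, adjusted p = 0.000425), and both calls held in every alternative. Between origins it differed by -0.01 in fresh cells (interval -0.42 to 0.40, adjusted p = 0.970) and by 0.55 in expanded cells (interval 0.14 to 0.95, adjusted p = 0.113). The difference between the rises was 0.56 ± 0.26 (adjusted p = 0.183).

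Eya1, which is needed for the kidney and ear to form in the embryo, had 780 and 689 normalized counts in TF, 69.3 and 132 in TE, 587 and 562 in SF, and 338 and 154 in SE. The fresh groups were high and TE was the lowest group. Eya1 fell 7.31-fold in teratoma-derived cells (log2 fold change -2.87 ± 0.43, edgeR adjusted p = 0.00116), in every alternative. It fell 2.33-fold in satellite cells (-1.22 ± 0.41, adjusted p = 0.0377), a call that was lost without SF replicate 1 (adjusted p = 0.107), SF replicate 2 (0.0722) or SE replicate 2 (0.166), and in a test against the fold threshold itself (0.0535). TE was lower than SE by -1.29 ± 0.42 without passing (adjusted p = 0.106), and the difference between the falls was -1.65 ± 0.58 (adjusted p = 0.0900). Both of these values passed without SE replicate 2 (adjusted p = 0.00766 and 0.00841). In fresh cells Eya1 differed by 0.35 ± 0.40 between the origins (adjusted p = 0.573).

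Eya2, an Eya gene expressed in the somite, was the other gene on which expansion acted differently in the 2 origins. It had 417 and 287 normalized counts in TF, 296 and 204 in TE, 185 and 130 in SF, and 619 and 407 in SE. The 2 teratoma groups overlapped, while both SE libraries were well above both SF libraries. Eya2 rose 3.25-fold in satellite cells (log2 fold change 1.70 ± 0.38, edgeR adjusted p = 0.00579), in every alternative, and changed by -0.49 ± 0.37 in teratoma-derived cells (adjusted p = 0.347). The difference of these effects was -2.20 ± 0.53 (adjusted p = 0.0226), which missed the threshold without TF replicate 1 (adjusted p = 0.0627) or TE replicate 2 (0.0869). In fresh cells TF was above SF (1.16 ± 0.38, adjusted p = 0.0498), and in expanded cells the difference of TE from SE was -1.04 ± 0.37 (adjusted p = 0.143). The fresh difference lay at the threshold and passed in 4 of the 15 alternatives, with an adjusted p between 0.0547 and 0.239 when a TF, TE or SF library was left out.

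Eya3, a widely expressed Eya gene, rose in both origins. It had 351 and 424 normalized counts in TF, 824 and 721 in TE, 339 and 194 in SF, and 689 and 649 in SE. All expanded libraries lay above all fresh libraries. Eya3 rose 2.51-fold in satellite cells (log2 fold change 1.33 ± 0.30, edgeR adjusted p = 0.00591), in every alternative, and 1.99-fold in teratoma-derived cells (0.996 ± 0.293, adjusted p = 0.0324). The teratoma call was lost when any of the 4 teratoma libraries was left out (adjusted p from 0.0630 to 0.160), and in a test against the fold threshold itself (0.0578). Between origins Eya3 differed by 0.54 ± 0.30 in fresh cells (adjusted p = 0.215) and by 0.21 ± 0.29 in expanded cells (adjusted p = 0.781), and the difference of the rises was -0.33 ± 0.41 (adjusted p = 0.667).

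Set beside each other per kilobase of the longest transcript, the make-up of the Eya genes in the expanded cells was unlike that in the fresh cells. The summed Eya level was 510 ± 43.4 per kilobase in TF, 728 ± 13.7 in TE, 372 ± 27.7 in SF and 705 ± 62.0 in SE. Eya4 made up 24.4% ± 1.80 of that sum in TF and 62.5% ± 3.48 in TE, and 33.9% ± 5.76 in SF and 44.6% ± 8.76 in SE. Eya1 made up 33.0% ± 0.0807 in TF and 3.17% ± 1.44 in TE, and 35.4% ± 1.55 in SF and 7.83% ± 3.52 in SE. The ratio of Eya4 to Eya1 per kilobase accordingly went from 0.701 and 0.781 in TF to 27.9 and 15.5 in TE, and from 0.868 and 1.04 in SF to 3.72 and 9.50 in SE. In SE the remainder was mostly Eya2, at 29.3% ± 6.08, against 13.9% ± 3.39 in TE.

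Of the 3 Six-family genes followed here, Six4 held the largest share per kilobase in both expanded groups. Its share was 85.5% ± 2.68 in TE and 55.3% ± 8.29 in SE, against 35.7% ± 19.2 in TF and 26.1% ± 0.943 in SF. Six2 held 55.8% ± 0.993 in SF and 39.4% ± 13.4 in SE but 12.7% ± 1.62 in TF and 2.45% ± 1.53 in TE. In TF the order differed between the libraries, with Six4 at 49.3% and Six5 at 39.2% in replicate 1 and at 22.1% and 64.1% in replicate 2. In SE replicate 1 Six4 and Six2 held nearly equal shares, 49.4% and 48.9%, while in SE replicate 2 they held 61.1% and 29.9%. These shares are descriptions, and no test was made of them.

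**Figure D3:**
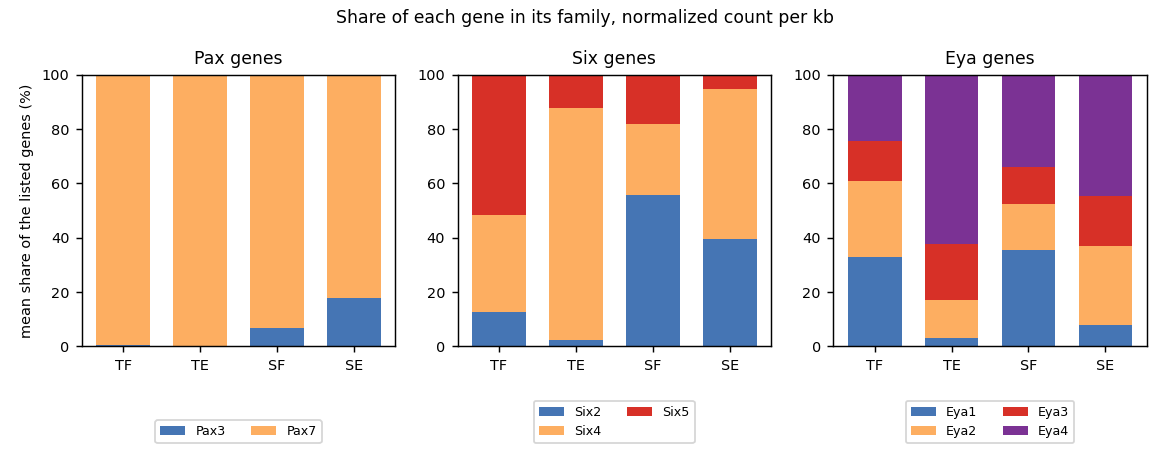
Mean share of each gene in the summed normalized count per kilobase of its family (y axis, percent of the family sum, from 0). The Pax pair, the 3 Six-family genes and the 4 Eya genes are shown by group (x axis), each bar a mean of n = 2 libraries. Eya4 and Six4 take larger mean shares in TE than in TF, and the mean Six2 share is 2.45% in TE against 55.8% in SF.

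Between origins, 3 of the 9 genes were called in fresh cells (Eya2 higher in TF, Pax3 and Six2 lower), against 24.2% of all tested genes (15.1% higher, 9.13% lower). The calls higher in TF made up 62.3% of all calls, 52.1% with median-ratio size factors and 48.7% by DESeq2. The count of members was 1 without TF replicate 1, TF replicate 2 or SF replicate 1. In expanded cells 2 of 9 were called (Pax3 and Six2, both lower in TE), against 7.21% of all tested genes (3.15% higher, 4.07% lower). The median of the 9 log2 fold changes was 0.35 in fresh and -0.66 in expanded cells, against 0.08 and -0.00339 over all tested genes.

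Across the 8 libraries the members fell into sets with alike patterns, given here as descriptions because the libraries share groups and culture stage. On log2(normalized count + 1), Pax3 and Six2 had a Pearson r of 0.900, Eya3 and Eya4 of 0.859, and Pax7 and Eya1 of 0.855. The most opposed pairs were Eya1 with Eya4 (r = -0.945) and Pax7 with Eya4 (r = -0.934). These 3 sets are those with high levels in satellite origin, in expanded cells and in fresh cells.

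The same measure was taken between each member and 12710 other genes whose mean level reached 50 normalized counts, and the 3 genes most like each member over n = 8 libraries are named. For Pax3 they were Cobll1, Fgf13 and Pcdhgb1 (r from 0.975 to 0.978), and for Six2 they were Lpin3, Lbx1 and Kdm5d (0.978 to 0.983). For Pax7 they were Notch2, a receptor of the pathway that holds satellite cells quiescent, Rarb and Cep128 (0.983 to 0.986), and for Eya1 they were Tspan18, Thsd7a and Pcdhga11 (0.984 to 0.990). For Six4 they were Mmp15, Gga2 and Mif (0.988 to 0.989), for Eya3 Plxna3, Bend6 and Farsb (0.991 to 0.992), and for Eya4 Ghitm, Kif5b and Ttc27 (0.993 to 0.996). For Six5 they were Sgms1, Naglu and Mau2 (0.961 to 0.988), and for Eya2 Ctxn1, Ephb6 and Sh3bp4 (0.948 to 0.959). An r above 0.95 was common for members that follow culture stage (156 genes for Eya4, 130 for Eya3) and rare for the others (2 genes for Eya2, 6 for Six2).

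Of 8 genes known as targets of Pax3 or Pax7, 1 was higher and 4 lower in TE than in TF, and 1 was higher and 4 lower in SE than in SF. Over all tested genes, 9.86% were higher and 16.2% lower in the former comparison, and 20.9% higher and 19.8% lower in the latter. Myf5, the commitment factor that Pax7 activates in satellite cells, fell in both origins (log2 fold change -3.33 and -3.86, edgeR adjusted p = 0.00045 and 0.000128), as did Id3, an inhibitor of differentiation (-2.51 and -1.003, adjusted p = 0.000302 and 0.0188). Myf5 had 850 and 1448 normalized counts in TF, 158 and 70.5 in TE, 1382 and 1663 in SF, and 81.7 and 128 in SE, the same division of fresh from expanded libraries as Pax7. Fgfr4 and Dmrt2 fell in satellite cells (-1.67 and -2.84, adjusted p = 0.00327 and 0.000383). Myod1 rose in teratoma-derived cells (2.68, adjusted p = 6.07e-05), from 675 and 986 to 5315 and 5306 normalized counts.

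Lbx1, a factor that limb muscle precursors need in order to migrate, followed the satellite origin as Pax3 and Six2 did. It had 37.1 and 65.2 normalized counts in TF, 3.30 and 2.55 in TE, 483 and 623 in SF, and 833 and 622 in SE. Lbx1 was lower in TF than in SF (log2 fold change -3.43, edgeR adjusted p = 0.000395) and in TE than in SE (-7.90, adjusted p = 4.07e-05), on estimated counts of 4 and 3 in TE, and it fell with expansion in teratoma-derived cells (-4.07, adjusted p = 0.00032). Of all 8 targets, Lbx1 included, 2 were higher and 3 lower in TF than in SF (15.1% and 9.13% of all tested genes), and 2 were higher and 4 lower in TE than in SE (3.15% and 4.07% of all tested genes). Met, another of the 8 targets, went the other way from Lbx1 in fresh cells. It was higher in TF than in SF (log2 fold change 1.32, edgeR adjusted p = 0.00672) but lower in TE than in SE (-1.20, adjusted p = 0.0243). With expansion Met fell in teratoma-derived cells (-1.63, adjusted p = 0.00179) and rose in satellite cells (0.89, adjusted p = 0.0223). Itm2a, which encodes a membrane protein, was higher in TF than in SF (3.66, adjusted p = 0.00146) and in TE than in SE (2.69, adjusted p = 0.0125), while Id3 was lower in TE than in SE (-2.77, adjusted p = 0.000807) and Myod1 lower in TF than in SF (-3.16, adjusted p = 0.000111).

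Of 10 genes known as targets of Six-family and Eya factors in muscle, 6 were higher and 1 lower in TE than in TF, and 6 were higher in SE than in SF, against 9.86% higher and 16.2% lower and 20.9% higher over all tested genes. Myog, the factor that starts terminal differentiation, rose by 3.11 and 9.69 on the log2 scale (edgeR adjusted p = 0.00124 and 9.28e-06), from 1407 and 1537 to 12310 and 13037 normalized counts in teratoma-derived cells and from 8.32 and 14.3 to 4305 and 14722 in satellite cells. The fast-fiber genes Mylpf (3.02 and 7.30, adjusted p = 0.000546 and 8.15e-06) and Tnnt3 (2.68 and 5.01, adjusted p = 0.00261 and 7.75e-05) rose in both origins. The glycolytic enzyme gene Aldoa also rose in both (1.10 and 2.38, adjusted p = 0.00574 and 5.19e-05). Myf6 was the gene lower in TE than in TF (-6.63, edgeR adjusted p = 0.0177), on estimated counts of 0 and 2 in TE. The lists overlap, since Myod1 counts both here and among the Pax targets, and Myog and Tnnt3 also count among the differentiation genes. Myh4, the fast myosin of adult fibers, did not pass in either comparison with expansion, and was lower in TF than in SF (-2.37, adjusted p = 0.00741). The median log2 fold change of the 10 genes was 1.88 in TE against TF and 2.68 in SE against SF, and that of all tested genes was -0.18 and -0.23.

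Proteins that bind or modify Pax3 or Pax7, or belong to the histone methyltransferase complex that Pax7 recruits, are encoded by 7 listed genes, of which 3 rose in TE against TF and 4 rose in SE against SF, where 9.86% and 20.9% of all tested genes were higher. Ash2l and Rbbp5, core subunits of the complex that methylates histone H3 at lysine residues of active genes, rose in both origins (Ash2l 1.21 and 1.26, edgeR adjusted p = 0.00392 and 0.00192, and Rbbp5 1.03 and 1.20, adjusted p = 0.0137 and 0.00425). Paxbp1, which links that complex to Pax proteins, rose in teratoma-derived cells (0.81, adjusted p = 0.0186), and Carm1, which methylates Pax7, rose in satellite cells (1.06, adjusted p = 0.00174). So did Nedd4, a ubiquitin ligase known to target Pax7 for degradation (1.06, adjusted p = 0.00292). The median log2 fold change of the 7 genes was 0.56 and 1.06. Of 10 further Pax, Six-family and Dach genes that act mainly outside muscle, 8 were tested, and 2 were lower in TE than in TF. These were Dach1, a corepressor partner of Six-family factors (log2 fold change -5.29, adjusted p = 0.0137, on estimated counts of 13 and 0 in TE), and Pax6, an eye and brain factor (adjusted p = 0.0436, with no size given because TE held estimated counts of 1 and 0).

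**Figure D4:**
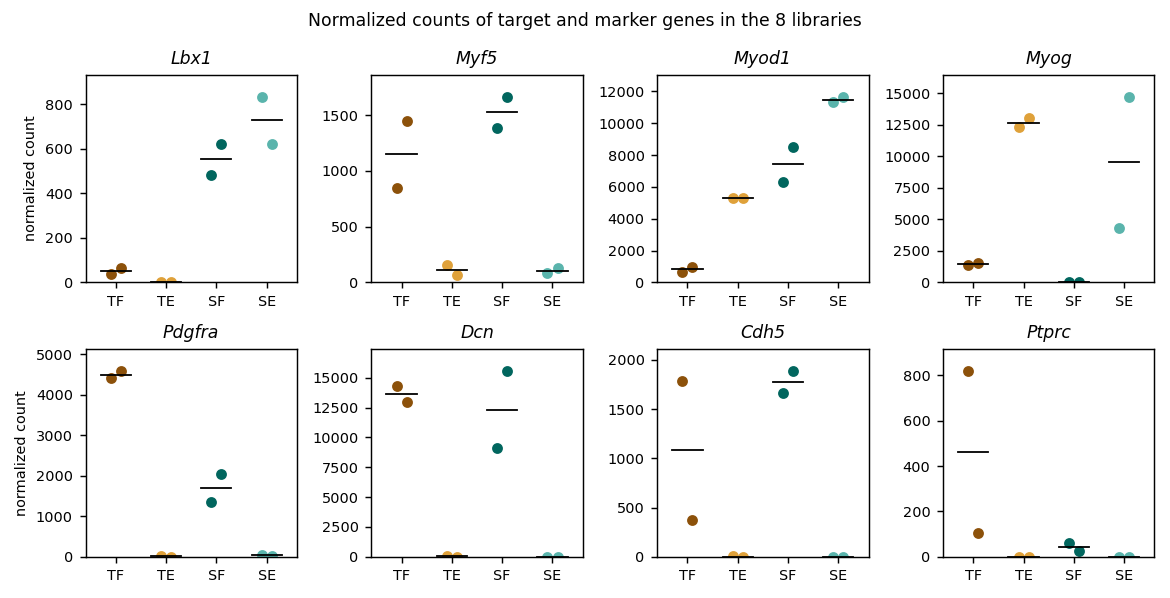
Normalized counts of target and marker genes (y axis, linear, from 0, a separate scale for each gene) in the 4 groups (x axis), with a point for each library and a bar for the mean of n = 2. Lbx1 is high in the satellite libraries, Myf5 in the fresh libraries and Myog in the expanded libraries, while Pdgfra, Dcn, Cdh5 and Ptprc are near 0 in the expanded libraries.

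Muscle identity and other cell types moved with culture stage, and their part in the results above was not tested. The sort markers were present in all groups, with Itga7 from 2494 to 6278 and Vcam1 from 639 to 6350 normalized counts. Vcam1 fell 7.38-fold in TE and 3.72-fold in SE against the fresh cells (edgeR adjusted p = 0.0001 and 0.000567), while Itga7 rose 1.86-fold in TE (adjusted p = 0.0362). The quiescence markers Calcr and Cd34 were at 0 and at most 15.4 in the expanded libraries. Calcr was 565 and 849 in TF and 1335 and 1378 in SF. The summed level of 8 differentiation genes was 20359 to 31046 in TF, 145148 to 155559 in TE, 2935 to 5080 in SF and 173543 to 327155 in SE, and 7 of 8 were higher in each expanded group. In bulk libraries, fewer cells of a type and less RNA of a gene per cell cannot be told apart.

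Fibro-adipogenic, endothelial and hematopoietic genes were present in the fresh libraries, although the teratoma sort excluded cells with CD31 or CD45, and were close to 0 after expansion. The summed fibro-adipogenic markers (Pdgfra, Dpt, Pi16, Lum, Dcn and Clec3b) were 31264 to 31658 in TF, 25.5 to 80.0 in TE, 14955 to 25749 in SF and 45.8 to 49.3 in SE, with 6 of 6 lower in each expanded group. The endothelial sum was 1138 to 3862 in TF, 7.64 to 18.1 in TE, 4473 to 5806 in SF and 22.4 to 36.2 in SE (6 of 6 lower in each), and Kdr, Emcn and Cldn5 were at 0 in every expanded library. The hematopoietic sum was 6018 in TF replicate 1 and 525 in TF replicate 2, 409 to 426 in SF, 12.4 to 28.0 in TE and 30.1 to 107 in SE (6 of 6 lower in TE, 4 of 6 in SE), and Ptprc was at 0 in every expanded library. Cdh5 was likewise uneven in TF, at 1789 and 376 normalized counts. Without TF replicate 1, 6 of the 9 genes were still called in TE against TF, and Eya3 was the gene lost.

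Tendon markers summed to between 8421 and 9458 in the fresh libraries and between 641 and 1368 in the expanded ones (4 of 5 lower and 1 higher in each origin), and pericyte and smooth muscle markers to between 22040 and 30861 and between 4805 and 5172 (6 of 6 lower in TE, 5 of 6 in SE). Among nephron progenitor markers, a tissue in which Six2 and Eya1 act, 2 of 6 were lower with expansion in each origin. Their sums were 587 to 682 in TF, 228 to 242 in TE, 1390 to 1616 in SF and 236 to 271 in SE. The SF sums were mostly Gdnf, at 1119 and 1377 normalized counts, and no other marker of this list exceeded 161 in SF. Among Schwann and neural crest markers, where Pax3 is expressed, 4 of 8 were lower and 1 higher in each origin with expansion, with sums of 1615 to 1802 in TF, 2821 to 3226 in TE, 1523 to 2071 in SF and 1150 to 3132 in SE. Among 8 neural markers, 2 were higher and 3 lower in TE than in TF, and 3 higher and 1 lower in SE than in SF, with sums of 9596 to 10651 in TF, 50640 to 51895 in TE, 7108 to 7277 in SF and 38167 to 44019 in SE. These sums were mostly Nes and Ncam1, which myoblasts also express (41477 and 9766 normalized counts in TE replicate 1), while Sox2 had 366 and 222 in TF and 0 in both TE libraries, and Sox1 had 35.8 and 133 in TF and 0 in both TE libraries.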

How the data were processed

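RNA from 8 libraries was made into stranded total RNA libraries with a pico-input kit and sequenced from both ends, and the authors deposited a table of estimated counts per gene symbol, not normalized. The submitters' processing notes name kallisto 0.44.0, CASAVA, GRCm38 and mm10, and the annotation behind the table is not given in the sources used here. In a library, whole numbers made up from 74.4% to 84.4% of all values, and the rest were rounded for testing. The 17582 genes kept by filterByExpr were scaled by TMM and tested with the quasi-likelihood test of edgeR 4.0.16 (R 4.3.3) in a single model of the 4 groups, with no term for replicate, and Benjamini-Hochberg adjustment (common dispersion 0.233, 4 residual degrees of freedom). Levels per kilobase used the longest GENCODE M21 transcript, and likeness used log2(normalized count + 1). The steps were tested on simulated data. Groups came from the sample titles.

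The members, the gene lists (other Pax, Six-family and Dach genes, Pax cofactors, Pax targets, Six-family targets, muscle genes and markers of other cell types) and the tests were chosen with earlier results of these data known, so no p was adjusted over a list alone. All 9 members were named, with up to 4 called genes of each list by smallest adjusted p, cell type markers, and the 3 genes most like each member. Met of the Pax targets was named beyond this rule. Same-numbered libraries of different groups had correlations of their deviations between -0.0261 and 0.0754, which gave no sign of pairing by replicate number. These values cannot show that such libraries had separate origins, because other differences between the replicates of a group can hide a shared one. The alternatives were median-ratio size factors, no filter, DESeq2 1.42.0, only the groups compared, a block for replicate, testing against the fold threshold itself, removal of Rn45s, each library left out, other transcript lengths and Spearman's rho.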

Additional observations from a re-analysis of the deposited data

Results flagged for a closer look

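The effect of expansion differed between teratoma-derived and satellite cells for 2 of the 9 genes by a test of that difference itself (edgeR, TE/TF minus SE/SF). For Six2 the difference was -3.49 on the log2 scale (adjusted p = 0.0210), with levels of 51.3 and 7.57 normalized counts in TF and TE and 197 and 331 in SF and SE, and it was lost without TE replicate 1 or SE replicate 1. For Eya2 it was -2.20 (adjusted p = 0.0226), with levels of 352 and 250 in TF and TE and 158 and 513 in SF and SE, and it was lost without TF replicate 1 or TE replicate 2. With 2 libraries in each group no test for a single library far from its group could be made.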

How the results depend on the processing

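Of 665 alternative values of the members' log2 fold changes, 595 kept their direction and their side of the threshold, 36 lost a call, 12 gained one and 22 changed sign, all of the last among values that were not called. Pax7, Eya1 and Eya4 in TE against TF, Pax7, Six4, Eya2, Eya3 and Eya4 in SE against SF, Pax3 in TF against SF, and Pax3 and Six2 in TE against SE kept their calls in every alternative run. The values that changed sign were close to 0. Pax7 in TF against SF was -0.11 with median-ratio size factors and by DESeq2, -0.0289 with only the groups compared, -0.0939 without Rn45s, and -0.34 to 0.35 with a library left out. The difference of the expansion effects for Pax7 was 0.0242 with median-ratio size factors, 0.0243 by DESeq2 and 0.0202 without Rn45s, and -0.41 to 0.29 with a library left out. Six5 in TE against SE was -0.0115, -0.0128 and -0.0103 under the same 3 settings and -0.66 to 1.30 with a library left out. With a library left out, Pax3 in SE against SF was -0.24 to 0.68, Eya4 in TF against SF -0.13 to 0.11, and Pax7 in TE against SE -0.31 to 0.25.

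Leaving out a library gave 2739 to 5439 called genes in TE against TF (main value 4581), 2639 to 5072 in TF against SF (4261), 653 to 1698 in TE against SE (1268) and 1467 to 2996 in the difference of effects (2517), and called members from 4 to 7, 1 to 4, 2 to 3 and 1 to 3. In TE against SE the count of genes was 2260 with no filter and 2147 by DESeq2. The members called in TF against SF were 1 when only those groups were fitted, and those called in the difference of effects were 4 with no filter. Six2 in TE against TF missed the threshold with only those groups fitted (adjusted p = 0.0563), and so did Eya1 in SE against SF (0.0630) and Six2 in TF against SF (0.0505). In a test against the fold threshold itself, Eya3 in TE against TF (0.0578), Eya1 in SE against SF (0.0535) and Eya2 in TF against SF (0.0759) missed it. The cause of these changes was not tested. By mean instead of longest transcript length, Pax7 held 95.02% of the Pax level in SF and 86.3% in SE. The labels do not say whether same-numbered libraries share an origin. A replicate block gave 4321 called genes in TE against TF, 6757 in SE against SF and 3979 in TF against SF. It gave 1205 in TE against SE and 2327 in the difference of effects. In the same order the called members were 7, 6, 3, 2 and 3, with Six4 the member gained in the last (edgeR adjusted p = 0.0436). By Spearman's rho, at most 1 of the 3 genes most like a member remained. Depth and the 2 libraries in each group limit what can be seen, and in the simulation of TE against SE most changes of 2-fold were missed.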
